A study of Mus musculus with 71 samples.

Results

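The 7 genes described here make, carry and break down dopamine, and were taken by symbol from a table of 37681 genes. They were Th, Ddc, Gch1, Slc6a3, Slc18a2, Maoa and Maob, and each was present once in all 6 tables. The study asked how gene expression in the reward circuit of mice differed after cocaine self-administration, early and late in abstinence, and each region and time point was a comparison of its own. Wild-type C57BL/6 mice, by the methods of the study adult C57BL/6J males and females of 8 weeks, were first trained on food and then self-administered cocaine, at 0.7 mg/kg for each infusion, or saline in sessions of 2 h on 21 days. The nucleus accumbens (NAc), ventral tegmental area (VTA) and prefrontal cortex (PFC) were taken with a micro-punch after 1 or 28 days of abstinence, and total RNA was sequenced. All 12 groups were thus wild type, food trained and fitted with a jugular catheter, and they differed in the drug, the day and the region. There were 6 libraries in each group, except saline VTA at 28 days with 5, which made 71 libraries with 20971967 to 49700932 reads on genes. The labels do not say that libraries came from separate mice, so the p-values measure the spread between these libraries, which may be partly technical.

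Dopamine is made from tyrosine in 2 steps. Th (tyrosine hydroxylase) makes L-DOPA and is the rate-limiting enzyme, Ddc (aromatic amino acid decarboxylase) turns L-DOPA into dopamine, and Gch1 (GTP cyclohydrolase) makes the biopterin cofactor that Th requires. Slc18a2 (VMAT2) loads monoamines into synaptic vesicles, and Slc6a3 (the dopamine transporter, DAT) takes dopamine back into the neuron and is the main target of cocaine. Maoa and Maob (monoamine oxidases) degrade it, and are used far more widely: MAO-A is known from catecholamine neurons and MAO-B from serotonin neurons and astrocytes. The cell bodies of the neurons that use dopamine lie in the VTA and the adjoining substantia nigra, whereas their axons end in the NAc and PFC, so that a punch of the NAc or PFC holds little of their mRNA. Ddc, Gch1 and Slc18a2 are also used by serotonin neurons, which lie just behind the VTA.

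All 7 are protein-coding genes, and on mm9, the build of the deposited tables, none has exons that overlap another annotated gene. The synthesis genes are Th (ENSMUSG00000000214, chr7:150078657-150117033, minus strand), Ddc (ENSMUSG00000020182, chr11:11714104-11798047, minus strand) and Gch1 (ENSMUSG00000037580, chr14:47773570-47809088, minus strand). The transporters are Slc6a3 (ENSMUSG00000021609, chr13:73674195-73716120, plus strand) and Slc18a2 (ENSMUSG00000025094, chr19:59335368-59370502, plus strand). Maoa (ENSMUSG00000025037, chrX:16196824-16264944, plus strand) and Maob (ENSMUSG00000040147, chrX:16286408-16394492, minus strand) are neighbours and point towards each other.

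The sequences just upstream of the genes are shown as a description, and a link between them and the levels of the genes was not tested. Each window runs from 120 bases before the start of the gene to 20 bases after it, from RefSeq on GRCm38.p6, read 5′ to 3′ on the strand of the gene. A window was found for 6 of the 7 genes, all but Maob, and that of Gch1 was searched but is not printed. For Ddc 2 starts are listed, of which the first is shown. Capitals mark a perfect match on either strand to the cyclic AMP response element (CRE, TGACGTCA) or to the NBRE (AAAGGTCA), the site of the NR4A nuclear receptors, one of which the study was about.
Th, chr7:142899976-142900115, minus strand: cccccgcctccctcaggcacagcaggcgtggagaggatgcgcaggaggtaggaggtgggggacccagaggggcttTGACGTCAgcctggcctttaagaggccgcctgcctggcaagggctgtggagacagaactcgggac
Ddc, chr11:11898125-11898264, minus strand: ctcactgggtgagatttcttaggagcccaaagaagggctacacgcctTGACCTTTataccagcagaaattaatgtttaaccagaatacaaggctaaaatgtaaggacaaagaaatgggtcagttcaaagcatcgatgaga
Slc6a3, chr13:73536627-73536766, plus strand: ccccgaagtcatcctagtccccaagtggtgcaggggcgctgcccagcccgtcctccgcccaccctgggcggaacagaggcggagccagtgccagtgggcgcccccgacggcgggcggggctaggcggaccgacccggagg
Slc18a2, chr19:59260758-59260897, plus strand: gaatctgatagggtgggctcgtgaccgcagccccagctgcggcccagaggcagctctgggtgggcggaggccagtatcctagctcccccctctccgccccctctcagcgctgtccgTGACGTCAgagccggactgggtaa
Maoa, chrX:16619578-16619717, plus strand: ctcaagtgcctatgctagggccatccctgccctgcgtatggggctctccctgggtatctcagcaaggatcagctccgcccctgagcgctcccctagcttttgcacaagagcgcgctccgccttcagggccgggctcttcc
The windows of Th and Slc18a2 hold a CRE, the first base of which lies 45 and 4 bases before the start. The window of Ddc holds an NBRE on the opposite strand, 73 bases before the start. The windows of Slc6a3, Maoa, Gch1 and the other start of Ddc hold neither motif. Of all 32851 mouse promoter sequences searched, which were longer than the windows shown, 1.79% hold the CRE and 1.507% the NBRE. These shares are therefore not those of windows of the printed length. The 2 motifs do not overlap in letters here. A match is a description of these letters, and no match says only that they are not in this window.

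The placement of the 7 genes in the 3 regions was read first from the saline libraries at 28 days, in RPKM. Here RPKM is reads per kilobase of gene, scaled by the reads of the library as adjusted by TMM, a normalization between libraries. On this scale genes can be set side by side only as far as the gene lengths hold. The lengths were those the authors used, which for Ddc was 1962 bases, where all its annotated exons together span 4354. For Th they were 2008 and 2364 bases. A longer length gives a lower RPKM, so the place of Ddc among the genes in each region depends on this choice. Comparisons of 1 gene between regions do not. In the VTA, RPKM of Slc6a3 was 322, 718, 390, 87.7 and 211 in the 5 libraries. RPKM of Th was 389, 654, 391, 140 and 143. RPKM of Ddc was 306, 449, 317, 136 and 174. The 3 genes therefore lay within the same range, and libraries 4 and 5 were low in each. Slc18a2 followed at 104, 210, 143, 63.6 and 69.2 RPKM, and Gch1 was far lower at 14.3, 22.6, 17.6, 8.75 and 7.37 RPKM. Maoa lay between 17.8 and 24.004 RPKM and Maob between 21.4 and 27.9 RPKM. The ranges of Slc6a3, Th, Ddc and Slc18a2 overlapped, as did those of Maoa, Maob and Gch1, and no order is given within either group.

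In the NAc the order was another one. Maob was highest there, at 10.1 to 12.3 RPKM (median 11.3), and Maoa was next at 8.00 to 9.08 RPKM (median 8.46). Ddc lay at 6.47 to 9.13 RPKM (median 7.37) and Th at 5.27 to 9.65 (median 7.85), overlapping each other and Maoa. The remaining 3 genes stood lowest, with Slc6a3 at 0.459 to 0.884 RPKM (median 0.535), Slc18a2 at 0.211 to 0.460 (median 0.342) and Gch1 at 0.183 to 0.370 (median 0.281). In the PFC, Maob (10.8 to 14.2 RPKM, median 12.3) and Maoa (7.83 to 9.80, median 8.95) again led. Ddc lay at 3.30 to 5.74 RPKM (median 4.90) and Th at 2.395 to 5.28 (median 3.04) in the PFC, and Gch1, Slc6a3 and Slc18a2 had medians of 0.386, 0.388 and 0.223 RPKM.

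**Figure D1:**
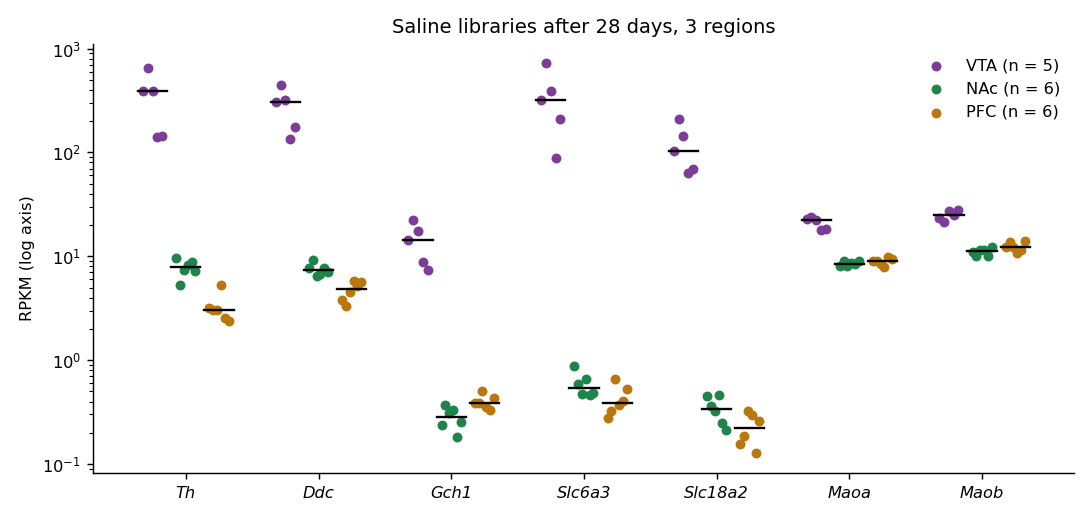
RPKM of the 7 genes (log axis) in each saline library at 28 days of abstinence, with 5 points for the VTA and 6 each for the NAc and PFC, and a black bar at the median. Slc6a3 in the VTA lies between 87.7 and 718 RPKM and in the NAc between 0.459 and 0.884, whereas Maob lies between 21.4 and 27.9 in the VTA and between 10.1 and 12.3 in the NAc.

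All 7 genes were higher in the VTA than in the NAc in edgeR's quasi-likelihood test on the counts of the 3 regions, against 32.6% of the 17181 genes tested. Slc6a3 was 541-fold higher (log2 fold change 9.08 ± 0.48 SE, Benjamini-Hochberg adjusted p = 3.59e-11) and Slc18a2 314-fold (8.29 ± 0.36, adjusted p = 3.19e-12). Gch1 was 45.8-fold higher (5.52 ± 0.28), Th 41.1-fold (5.36 ± 0.37) and Ddc 34.3-fold (5.10 ± 0.26). The monoamine oxidases differed far less, with Maoa 2.29-fold higher (1.20 ± 0.08, adjusted p = 8.93e-10) and Maob 2.09-fold (1.06 ± 0.09, adjusted p = 8.55e-09).

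All 7 genes were also higher in the VTA than in the PFC, against 29.8% of genes tested. The fold changes were 735 for Slc6a3 (log2 9.52 ± 0.49 SE), 470 for Slc18a2 (8.88 ± 0.37), 94.9 for Th (6.57 ± 0.39), 52.8 for Ddc (5.72 ± 0.27), 31.8 for Gch1 (4.99 ± 0.27), 2.12 for Maoa (1.09 ± 0.08) and 1.80 for Maob (0.85 ± 0.09). Between the 2 target regions the differences were small. Th was 2.31-fold higher in the NAc than in the PFC (log2 1.21 ± 0.33, adjusted p = 0.00613 in edgeR) and Ddc 1.54-fold (0.62 ± 0.23, adjusted p = 0.0381). Maob was lower in the NAc than in the PFC by a small amount (log2 -0.21 ± 0.08, adjusted p = 0.0451). Thus 3 of the 7 genes were called between NAc and PFC, against 40.7% of genes tested. Gch1 (log2 -0.53), Slc6a3 (0.44), Slc18a2 (0.58) and Maoa (-0.11) did not pass. The calls of Ddc and Maob between NAc and PFC were each lost when single libraries were left out, as given in the closing section.

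The punches of the target regions carried the markers of their tissue at 28 days, with summed striatal neuron markers of 2757 to 4949 CPM in the NAc and summed cortical excitatory markers of 1546 to 2495 CPM in the PFC. One PFC library stood apart from the others. CPM is the count scaled by the library's TMM-adjusted reads on genes, and not by gene length. Saline library 4 of the PFC at 28 days held 118 CPM of Drd1a, the D1 dopamine receptor, and 118 CPM of Drd2, the D2 receptor. Both receptors are abundant in striatal neurons. In the other PFC libraries at 28 days Drd1a lay between 15.5 and 22.0 CPM and Drd2 between 2.20 and 7.38 CPM. Without this library Th was higher in the NAc than in the PFC by 1.42 on the log2 scale (adjusted p = 0.00257 in edgeR), Ddc by 0.70 (adjusted p = 0.0298), and Maob differed by -0.24 (adjusted p = 0.0247).

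The VTA libraries varied widely in the genes of dopamine neurons, within both treatments and at both time points. From the lowest to the highest of the 11 libraries at 28 days, Slc6a3 spanned 8.19-fold, Th 4.66-fold, Gch1 3.52-fold, Ddc 3.32-fold and Slc18a2 3.30-fold. Over these libraries Maob spanned 1.38-fold and Maoa 1.35-fold. At 1 day the spans over 12 libraries were 4.36-fold for Slc6a3, 4.20-fold for Gch1, 4.10-fold for Slc18a2, 3.83-fold for Ddc and 3.63-fold for Th, against 2.61-fold for Maob and 1.68-fold for Maoa. The reads behind these values were many (4871 to 21328 on Th, 12269 to 64462 on Slc6a3 and 289 to 1466 on Gch1 per library at 1 day), so the spans exceed counting error by far. In bulk tissue, fewer cells of a type and less RNA per cell cannot be told apart.

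At 1 day of abstinence, the genes of dopamine synthesis and transport lay lower in the cocaine VTA libraries than in saline, with overlap between the groups. Values are in RPKM, the unit deposited for this table, and the test was limma on log2(RPKM + 0.1), a scale that understates changes of low genes. Th spanned 154 to 373 RPKM after saline (median 320) and 103 to 275 after cocaine (median 206). All 6 cocaine libraries lay below the saline median, and 1 lay below every saline library. Th was 1.52-fold lower after cocaine (log2 fold change -0.60 ± 0.24 SE, unadjusted p = 0.0277, limma adjusted p = 0.262). Ddc spanned 162 to 425 RPKM after saline (median 337) and 111 to 258 after cocaine (median 226). Its 6 cocaine libraries were again below the saline median, and the difference was 1.498-fold (log2 -0.58 ± 0.24, unadjusted p = 0.0292, limma adjusted p = 0.267). Gch1 spanned 4.40 to 18.5 RPKM after saline (median 12.9) and 6.02 to 15.2 after cocaine (median 10.3), so that the cocaine range lay inside the saline range (log2 -0.23 ± 0.31, limma adjusted p = 0.781).

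Of the transporters, Slc6a3 had the largest difference of the 7 genes. It spanned 277 to 651 RPKM after saline (median 523) and 149 to 394 after cocaine (median 297). All 6 cocaine libraries were below the saline median and 2 below every saline library. The difference was 1.79-fold (log2 -0.84 ± 0.25, unadjusted p = 0.00504, limma adjusted p = 0.167). Slc18a2 spanned 61.6 to 221 RPKM after saline (median 154) and 54.0 to 141 after cocaine (median 108), with all 6 cocaine libraries below the saline median (log2 -0.49 ± 0.29, limma adjusted p = 0.447). The oxidases differed little by comparison. Maoa spanned 16.7 to 28.0 RPKM after saline (median 24.9) and 17.9 to 27.5 after cocaine (median 22.8; log2 -0.09 ± 0.13, limma adjusted p = 0.814). Maob spanned 15.9 to 30.6 RPKM after saline (median 24.7) and 16.1 to 41.4 after cocaine (median 26.5; log2 0.14 ± 0.21, limma adjusted p = 0.816).

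None of the 7 genes passed the adjusted threshold in the VTA at 1 day in limma, where 0.0665% of the 15042 genes tested did, and none passed in edgeR on reads recovered from the RPKM values. At an unadjusted p under 0.05, Th, Ddc and Slc6a3 were lower (3 of 7), against 4.57% of genes tested that were lower at that level. That count was 5 without saline library 4, with Gch1 and Slc18a2 added, and 1, Slc6a3, without cocaine library 3 or without saline library 1, 3 or 5. The 4.57% belongs to the fit with all libraries, and the shares of the fits without a library are not given here. The median log2 fold change was -0.49 over the 7 genes and 0.03 over all genes tested. Saline library 4 and cocaine library 3 had the lowest levels of their groups for Th, Ddc and Slc6a3. Without saline library 4 the log2 fold change of Slc6a3 was -1.004 (limma adjusted p = 0.118) and that of Th -0.78, and without cocaine library 3 they were -0.67 (limma adjusted p = 0.290) and -0.43.

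At 28 days the values are in CPM. In the saline libraries Th was at 782, 1313, 785, 282 and 287 CPM. After cocaine it lay between 397 and 1311 CPM (median 741), within the saline range. The log2 fold change was 0.22 ± 0.44 SE (edgeR adjusted p = 0.841), and lay between 0.027 without cocaine library 5 and 0.60 without saline library 2. Ddc was at 601, 882, 621, 266 and 341 CPM after saline. Its cocaine range was 271 to 807 CPM (median 488; log2 -0.04 ± 0.34, edgeR adjusted p = 0.967). Gch1 was at 39.9, 62.8, 48.9, 24.3 and 20.5 CPM after saline, with saline libraries 4 and 5 again the lowest of their group. After cocaine Gch1 lay between 17.8 and 59.8 CPM (median 30.0; log2 -0.08 ± 0.35, edgeR adjusted p = 0.933).

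The transporters at 28 days showed the same overlap. Slc6a3 was at 1118, 2493, 1352, 304 and 731 CPM after saline and between 709 and 2205 CPM after cocaine (median 1373). The log2 fold change was 0.25 ± 0.47 SE (edgeR adjusted p = 0.831), and lay between 0.00715 without saline library 4 and 0.71 without saline library 2. Slc18a2 was at 397, 801, 545, 243 and 264 CPM after saline and between 244 and 688 after cocaine (median 403; log2 0.01 ± 0.35, edgeR adjusted p = 0.994). Maoa differed least between libraries, at 95.3, 100.4, 94.0, 74.4 and 76.0 CPM after saline and between 74.8 and 100.1 after cocaine (median 85.1; log2 -0.04 ± 0.11, edgeR adjusted p = 0.872). Maob was at 57.2, 52.0, 66.0, 60.0 and 67.7 CPM after saline, and here libraries 4 and 5 were not low. After cocaine Maob lay between 50.9 and 70.4 CPM (median 55.6; log2 -0.06 ± 0.10, edgeR adjusted p = 0.819).

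None of the 7 genes was called in the VTA at 28 days, and none had an unadjusted p under 0.05 in edgeR, where 0.0% of 16937 genes were called and 1942 genes had such a p. DESeq2 called 74 genes there and none of the 7. The median log2 fold change was -0.04 over the 7 genes and -0.03 over all genes. These values depended on the covariates: with the cortical index described further on as a covariate, the log2 fold change was -0.93 for Th, -0.93 for Ddc, -0.99 for Gch1, -0.89 for Slc6a3, -0.84 for Slc18a2 and -0.28 for Maoa. In that fit 4 of the 7 (Th, Ddc, Gch1 and Maoa) had an unadjusted p under 0.05 in edgeR, with none called. The share of all genes with such a p in the same fit is not given here, so this count has no base rate beside it.

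**Figure D2:**
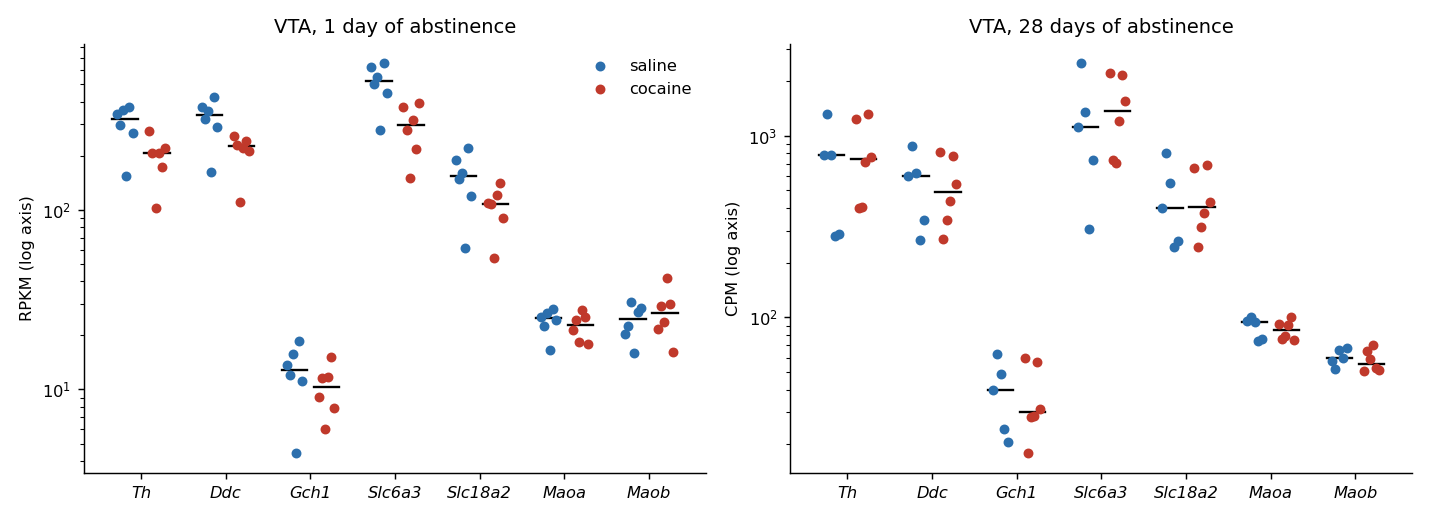
Level of each gene in every VTA library (log axis), in RPKM at 1 day and CPM at 28 days, by treatment, with a black bar at the median of each group; heights compare libraries and not genes, because CPM is not scaled by gene length. At 1 day the cocaine points of Slc6a3 lie between 149 and 394 RPKM and the saline points between 277 and 651, and no gene has groups that are fully apart at either time point.

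How much dopamine neuron RNA each VTA punch held was measured with 12 genes that mark these neurons and are not among the 7: the transcription factors Pitx3, En1, Foxa1, Foxa2, Lmx1a, Lmx1b and Nr4a2, with Ret, Slc10a4, Chrna6, Drd2 and Aldh1a1. At 1 day 11 of them were detected well enough to be tested and at 28 days all 12, with Pitx3 (0.137 to 0.640 RPKM) the one left out. The most abundant were Aldh1a1, an aldehyde dehydrogenase (median 452 RPKM at 1 day and 389 at 28 days), Chrna6, a nicotinic receptor subunit (76.4 and 60.8), Ret, the GDNF co-receptor (72.7 and 74.2), and Drd2 (41.1 and 49.1). The labelled tissue thus carried its defining markers in both tables. The mean log2 level of the detected markers was taken as a dopamine neuron index. At 1 day this index was 4.62, 4.25, 4.50, 3.34, 4.72 and 4.46 in saline libraries 1 to 6 and 4.44, 3.91, 2.92, 3.97, 3.92 and 3.90 in cocaine libraries 1 to 6. After cocaine 5 of the 6 values thus lay below all saline values other than that of library 4. The group means were 4.32 ± 0.50 (SD, n = 6) after saline and 3.84 ± 0.50 (SD, n = 6) after cocaine, a difference of -0.47 that an exact permutation test did not separate from the spread between libraries (two-sided p = 0.136). At 28 days the index was 6.05, 6.54, 6.00, 4.77 and 4.76 after saline and 6.50, 5.25, 5.38, 5.89, 6.66 and 6.05 after cocaine, with means of 5.62 ± 0.81 (SD, n = 5) and 5.95 ± 0.57 (SD, n = 6) and an exact permutation p of 0.439. The difference in the index thus had the sign of the differences in Th and Slc6a3 at both time points. Of the 11 markers tested at 1 day, 5 were lower at an unadjusted p under 0.05, against 4.57% of genes tested. None of the 11 passed adjustment in limma (median log2 fold change -0.54). Of the 12 at 28 days all were higher in sign and none passed in edgeR (median 0.23).

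Other cell groups also differed between the punches. The serotonin neuron markers Tph2, the enzyme of serotonin synthesis, and Slc6a4, the serotonin transporter, lay between 1.10 and 158 RPKM and between 0.233 and 70.2 RPKM at 1 day. At 28 days Tph2 lay between 0.809 and 262 CPM, with a median of 170 after saline and 17.8 after cocaine, and Slc6a4 between 0.270 and 144 CPM. The mean log2 level of the 3 serotonin neuron markers was lower after cocaine at 28 days by 2.73 (2.01 against 4.74, exact permutation p = 0.0628) and higher at 1 day by 1.11 (exact permutation p = 0.370). Slc17a7, the vesicular glutamate transporter of cortical neurons, had medians of 2.33 RPKM after saline and 16.8 after cocaine at 1 day, and of 70.9 CPM after saline and 4.90 after cocaine at 28 days. The mean log2 level of the detected cortical markers was higher after cocaine at 1 day by 1.00 (1.90 against 0.90, exact permutation p = 0.0238) and lower at 28 days by 0.55 (1.71 against 2.26, exact permutation p = 0.0260). Hdc, the histamine enzyme of the posterior hypothalamus, lay between 0.0839 and 25.2 RPKM at 1 day and between 1.70 and 93.6 CPM at 28 days. Noradrenaline neurons contributed little, as Dbh, which turns dopamine into noradrenaline, was at most 0.0403 RPKM at 1 day and 0.250 CPM at 28 days. The 5 microglia markers were all lower after cocaine at 1 day at an unadjusted p under 0.05, against 4.57% of genes tested. Their sum was 48.0 to 70.8 RPKM after cocaine and 72.3 to 99.3 after saline. The 7 genes were set beside the dopamine neuron, cortical and serotonin indices. The part of these cell groups in the differences of the 7 genes was not tested.

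Across the VTA libraries, the synthesis and transport genes followed the dopamine neuron index closely. The points of each correlation share their library and depth, p-values came from 100000 permutations and are those of Pearson's r unless given for rho, and 28 relations were adjusted together (7 genes, 2 indices, 2 time points). At 1 day, over 12 libraries, the Pearson r with the index was 0.97 for Th (Spearman rho 0.92, permutation p = 1e-05, the smallest they can give, adjusted p = 9.33e-05) and 0.97 for Ddc (rho 0.96, permutation p = 1e-05, adjusted p = 9.33e-05). It was 0.78 for Gch1 (rho 0.76, permutation p = 0.00338, adjusted p = 0.0086), 0.89 for Slc6a3 (rho 0.87, permutation p = 0.00013, adjusted p = 0.000455) and 0.90 for Slc18a2 (rho 0.89, permutation p = 0.00013, adjusted p = 0.000455). A step of 1 in the index went with a step of 0.99 in log2 Th, 0.97 in Ddc, 0.86 in Gch1, 1.06 in Slc6a3 and 1.01 in Slc18a2. Maoa had a shallower slope of 0.33 (r = 0.70, rho 0.71, permutation p = 0.0111, adjusted p = 0.0258), and Maob did not follow the index (slope 0.16, r = 0.22, rho 0.22, permutation p = 0.494, adjusted p = 0.532). The permutation p of rho was 6e-05 for Th, 2e-05 for Ddc, 0.00646 for Gch1, 0.00044 for Slc6a3, 0.0003 for Slc18a2, 0.0129 for Maoa and 0.502 for Maob, and by rho the same 6 genes passed adjustment.

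Saline library 4 and cocaine library 3 were the libraries farthest from the median index at 1 day. Without them r was 0.92 for Th (adjusted permutation p = 0.0028), 0.90 for Ddc (0.00428) and 0.85 for Slc6a3 (0.00875). The relations of Gch1 (r = 0.46) and Maoa (r = 0.37) did not pass without those libraries. Slc18a2 did not pass by r (0.72, adjusted permutation p = 0.051) but did by rho (0.81, adjusted permutation p = 0.0215), and r of Maob, which had not passed before, was -0.13. Within the 6 cocaine libraries r was 0.97 for Th, 0.96 for Ddc, 0.56 for Gch1, 0.84 for Slc6a3, 0.81 for Slc18a2, 0.41 for Maoa and 0.03 for Maob. Within the 6 saline libraries it was 0.96, 0.97, 0.97, 0.96, 0.95, 0.99 and 0.76 in the same order.

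At 28 days, over 11 libraries, r with the dopamine neuron index was 1.00 for Th (rho 0.95, permutation p = 1e-05, the smallest they can give, adjusted p = 9.33e-05), 0.94 for Ddc (rho 0.91, permutation p = 2e-05, adjusted p = 0.00014) and 0.89 for Gch1 (rho 0.91, permutation p = 0.00037, adjusted p = 0.00115). It was 0.93 for Slc6a3 (rho 0.90, permutation p = 4e-05, adjusted p = 0.000224) and 0.94 for Slc18a2 (rho 0.94, permutation p = 8e-05, adjusted p = 0.000373). The slopes were 1.23 for Th and 1.25 for Slc6a3, above those of Ddc (0.87), Slc18a2 (0.86) and Gch1 (0.84), although the slopes were not tested against each other. Maoa again had a shallow slope of 0.21 (r = 0.82, rho 0.72, permutation p = 0.00311, adjusted p = 0.0086). Maob ran the other way, with a slope of -0.16 (r = -0.64, rho -0.74, permutation p = 0.0384) that did not pass adjustment by r (adjusted p = 0.0717) but did by rho (permutation p = 0.0121, adjusted p = 0.0302). With the transcription factors alone as the index, Maob passed by r as well (r = -0.65, adjusted permutation p = 0.0339). The permutation p of rho was 7e-05 for Th, 0.00023 for Ddc, 0.00022 for Gch1, 0.0003 for Slc6a3, 9e-05 for Slc18a2 and 0.0166 for Maoa, all of which passed adjustment. Without saline libraries 4 and 5, the farthest from the median index, r was 1.00 for Th, 0.97 for Ddc, 0.91 for Gch1, 0.97 for Slc6a3, 0.95 for Slc18a2, 0.75 for Maoa and -0.66 for Maob. The adjusted permutation p of the first 5 was then at most 0.00216, that of Maoa was 0.0519 and that of Maob 0.11 (0.086 by rho). Within the 6 cocaine libraries r was 1.00, 0.98, 0.93, 0.99, 0.98, 0.76 and -0.67 in the same order, and the 5 saline libraries were too few for a correlation of their own.

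The index of cortical markers was related to the 7 genes less closely. At 1 day none of the 7 passed (r = -0.43 for Th, -0.50 for Slc6a3 with an adjusted permutation p of 0.167, and 0.27 for Maob). The signs within each treatment were opposite, a difference that was not tested: r of Th was -0.63 within cocaine and 0.38 within saline, that of Slc6a3 was -0.42 and 0.25, and that of Maob was -0.40 and 0.87. The r of 0.87 passed (n = 6, permutation p = 0.0236, adjusted p = 0.0472), in an adjustment over the 14 relations within saline and not over 28. Without saline libraries 1 and 4, the farthest from the median cortical index, Ddc (r = -0.76, adjusted permutation p = 0.0209) and Slc18a2 (r = -0.80, adjusted permutation p = 0.0121) did, of which Slc18a2 alone passed by rho (adjusted permutation p = 0.043). At 28 days Th passed by r (-0.69, permutation p = 0.0183, adjusted p = 0.0395), but not by rho (-0.49, permutation p = 0.131, adjusted p = 0.235), nor by r without saline libraries 4 and 5 (-0.29). Within the 6 cocaine libraries at 28 days its r was -0.83 (adjusted permutation p = 0.192).

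**Figure D3:**
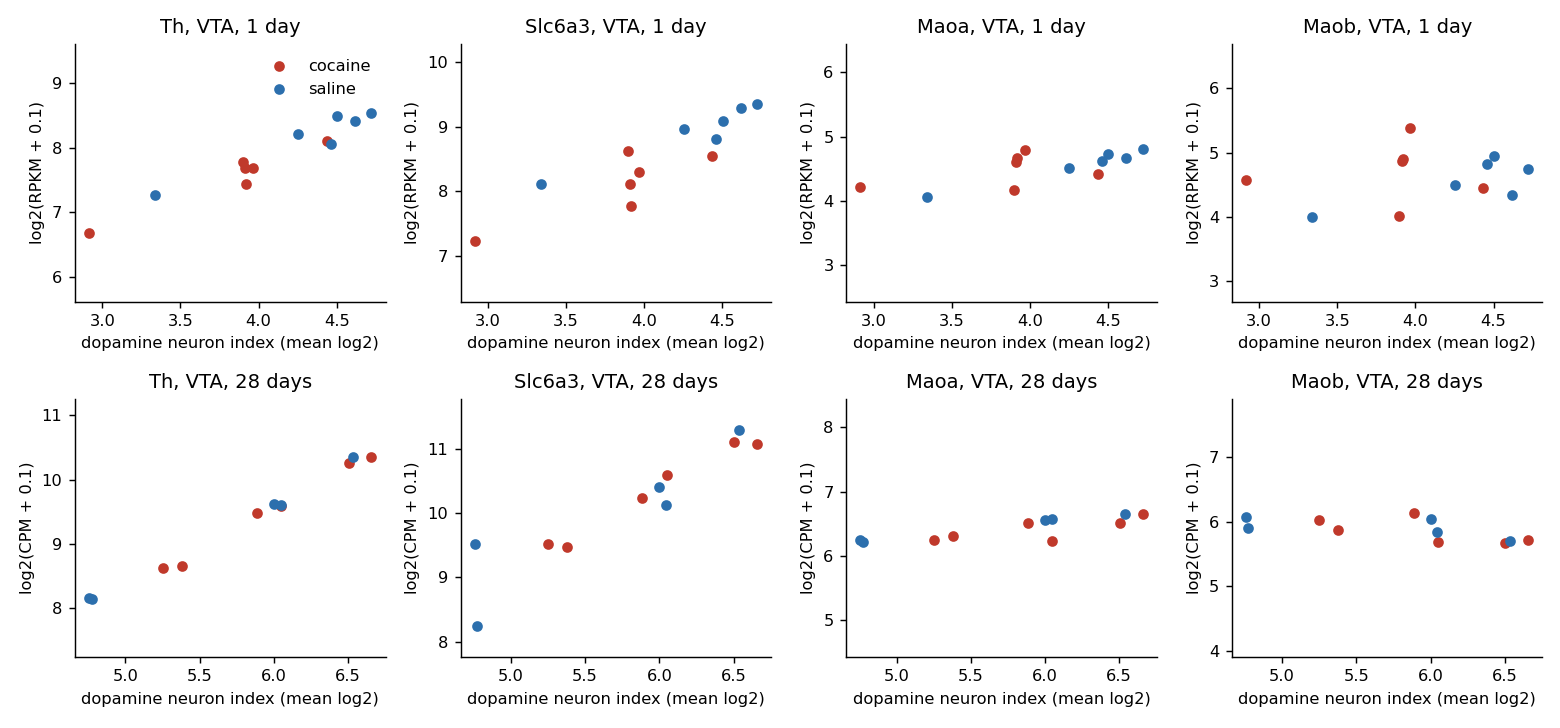
Log2 level of Th, Slc6a3, Maoa and Maob (log2 RPKM at 1 day, log2 CPM at 28 days) against the dopamine neuron index, the mean log2 level of the detected marker genes, with 1 point per VTA library in the colour of its treatment. Th lies along a line at both time points (r = 0.97 and 1.00), Maoa has a flat slope (0.33 and 0.21), and Maob has r = 0.22 and -0.64.

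Each gene was then read relative to the index, as its log2 level minus the index of the same library, which asks whether a gene differed beyond what the markers of dopamine neurons did. At 1 day the difference in Th was -0.13 between cocaine and saline on this scale (exact permutation p = 0.126, adjusted p = 0.220 over the 7 comparisons made), against -0.60 before, and that of Ddc was -0.11 (exact permutation p = 0.208, adjusted p = 0.291). Slc18a2 differed by -0.01 (exact permutation p = 0.968) and Gch1 by 0.24 (exact permutation p = 0.273). Slc6a3 differed by -0.36, with 5 of 6 cocaine libraries below every saline library (exact permutation p = 0.0281), and did not pass adjustment (adjusted p = 0.197). Over the 15042 genes tested, 0.0332% had at least 5 of 6 cocaine libraries below every saline library on this scale. However, most genes do not follow the index and carry its full spread here. As the index was lower after cocaine (by -0.47), such genes are moved up after cocaine on this scale. The share is thus no base rate for genes that follow the index. Maoa (0.39, exact permutation p = 0.115) and Maob (0.61, exact permutation p = 0.0758) lay higher relative to the index after cocaine, and neither passed. With the index as a covariate in limma over all genes, the log2 fold change was -0.17 for Th, -0.16 for Ddc, -0.01 for Slc18a2 and -0.42 for Slc6a3 (unadjusted p = 0.00904, adjusted p = 0.192).

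At 28 days Ddc was lower after cocaine relative to the index. The log2 ratio of Ddc to the index was 2.83 to 3.15 after cocaine (median 2.98, n = 6) and 3.19 to 3.66 after saline (median 3.28, n = 5), so that the groups did not overlap. Over the 16937 genes tested, 0.0059% had groups apart in this direction, which was 1 gene, Ddc itself, although most genes do not follow the index and carry its full spread on this scale. The difference was -0.35 (exact permutation p = 0.00433, adjusted p = 0.0303 over the 7 comparisons made). The call did not hold when any 1 of the 6 cocaine libraries was left out (adjusted p = 0.0556, where 0.00794 was the smallest p that 5 against 5 libraries reached), nor without saline library 5 (exact permutation p = 0.0143), nor with the transcription factors alone as the index (-0.40, exact permutation p = 0.0108, adjusted p = 0.0606). In edgeR over all genes with the index as a covariate, Ddc had a log2 fold change of -0.33 (unadjusted p = 0.00525) that did not pass adjustment (adjusted p = 0.448). The mean log2 level of the serotonin neuron markers also differed at 28 days, by -2.73 (exact permutation p = 0.0628). With both indices as covariates, a fit added after seeing the data, the value of Ddc was -0.22 (edgeR adjusted p = 0.641). Whether serotonin neurons had a part in the difference of Ddc was not tested.

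The other genes shared by dopamine and serotonin neurons had the same sign on this scale at 28 days. Gch1 differed by -0.42, with 4 of 6 cocaine libraries below every saline library (exact permutation p = 0.0216, adjusted p = 0.0758), and Slc18a2 by -0.28 (exact permutation p = 0.0455, adjusted p = 0.106). Th (-0.01, exact permutation p = 0.911) and Slc6a3 (0.08, exact permutation p = 0.764) were near 0. Maoa differed by -0.37 (exact permutation p = 0.245) and Maob by -0.39 (exact permutation p = 0.433), with a far wider spread between libraries. With both the dopamine and the serotonin neuron index as covariates, the log2 fold change of Slc18a2 was -0.09 and that of Gch1 -0.16 in edgeR.

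**Figure D4:**
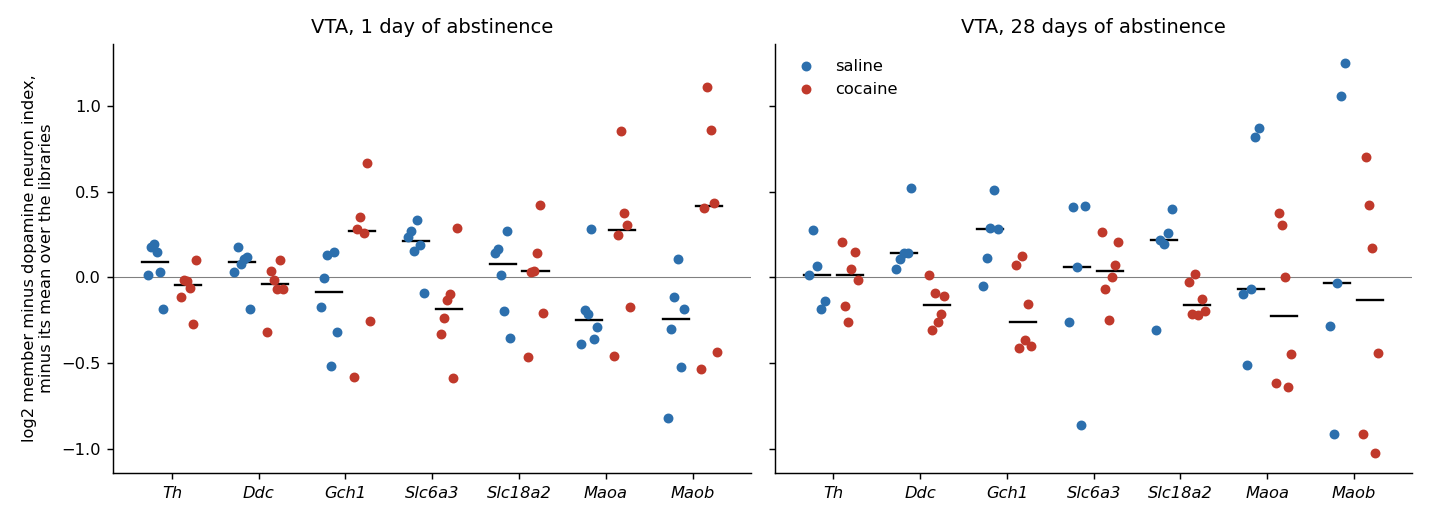
Log2 level of each gene minus the dopamine neuron index of the same VTA library, centred on 0 for each gene, at 1 and 28 days, by treatment, with a black bar at the median of each group. At 28 days the 6 cocaine points of Ddc lie below the 5 saline points, and at 1 day 5 of the 6 cocaine points of Slc6a3 lie below every saline point.

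In the NAc no difference of the 7 genes between cocaine and saline passed the test at either time point. At 1 day Th lay between 5.30 and 12.0 CPM after saline (median 6.94) and between 6.58 and 11.0 after cocaine (median 8.83; log2 0.14 ± 0.19 SE). Ddc lay between 12.2 and 19.2 CPM after saline (median 14.4) and between 12.8 and 20.1 after cocaine (median 15.9). Gch1 was near the limit of the depth, with 13 to 39 reads per library (0.529 to 0.991 CPM after saline and 0.610 to 1.42 after cocaine, log2 0.37 ± 0.25). The ranges of all 3 synthesis genes overlapped. Slc6a3 lay between 1.53 and 6.90 CPM after saline (median 2.35) and between 2.48 and 5.97 after cocaine (median 3.74; log2 0.43 ± 0.35). The value of 6.90 was that of saline library 6, and without it the log2 fold change was 0.87 (unadjusted p = 0.00584 in edgeR, adjusted p = 1.00). Slc18a2 lay between 1.10 and 3.89 CPM after saline (median 2.86) and between 1.74 and 6.02 after cocaine (median 2.08). Maoa lay between 44.0 and 58.8 CPM after saline (median 48.4) and between 41.1 and 55.0 after cocaine (median 47.5; log2 -0.03). Maob lay between 27.3 and 39.1 CPM after saline (median 31.0) and between 27.6 and 35.6 after cocaine (median 32.4). No gene had an unadjusted p under 0.05 at 1 day, and none was called by edgeR, which called 0.0126% of 15878 genes and had 636 genes with such a p, or by DESeq2, which called 21 genes.

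At 28 days Th in the NAc lay between 10.6 and 19.4 CPM after saline (median 15.8) and between 9.83 and 16.9 after cocaine (median 14.99; log2 -0.11). Ddc lay between 12.7 and 17.9 CPM after saline (median 14.5) and between 13.1 and 18.3 after cocaine (median 16.5; log2 0.13). Gch1 lay between 0.508 and 1.03 CPM after saline (median 0.782) and between 0.806 and 1.60 after cocaine (median 0.951; log2 0.37 ± 0.21, edgeR adjusted p = 0.781). Its groups overlapped, and without cocaine library 4, which held the value of 1.60, the log2 fold change was 0.21. Slc6a3 lay between 1.59 and 3.07 CPM after saline (median 1.86) and between 0.925 and 2.77 after cocaine (median 1.96; log2 -0.17). Slc18a2 lay between 0.807 and 1.76 CPM after saline (median 1.31) and between 0.821 and 2.79 after cocaine (median 1.58; log2 0.41 ± 0.29, edgeR adjusted p = 0.838). The oxidases were the steadiest of the 7 genes here. Maoa lay between 33.5 and 38.0 CPM after saline (median 35.4) and between 34.3 and 38.4 after cocaine (median 35.1), and Maob between 24.4 and 29.9 after saline (median 27.3) and between 26.2 and 30.5 after cocaine (median 27.3). None of the 7 genes had an unadjusted p under 0.05, and none was called by edgeR, which called 0.0% of 16295 genes and had 1102 genes with such a p, or by DESeq2, which called 14 genes. Without saline library 2, Ddc and Gch1 had such a p in edgeR, and the count over all genes in that fit is not given here. The treatment by time interaction, fitted in edgeR over the 24 NAc libraries, called none of the 7 genes and 0.0181% of 16612. The largest interaction of the 7 was that of Slc6a3 (log2 -0.59 ± 0.45, adjusted p = 0.999).

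In the PFC most cocaine libraries lay below the saline libraries in Th at both time points, without a call after adjustment. At 1 day Th lay between 1.89 and 2.72 RPKM after saline (median 2.00) and between 1.55 and 2.16 after cocaine (median 1.73). Of the 6 cocaine libraries, 4 lay below every saline library (log2 -0.25 ± 0.11 SE, unadjusted p = 0.0422, limma adjusted p = 0.913). At 28 days it lay between 4.81 and 10.6 CPM after saline (median 6.11) and between 3.48 and 4.82 after cocaine (median 4.18). Here 5 of the 6 cocaine libraries lay below every saline library, and Th was 1.55-fold lower (log2 -0.63 ± 0.17, unadjusted p = 0.00213, edgeR adjusted p = 0.842). The reads on Th were 134 to 417 per library at 28 days. Without saline library 4, the library with the high striatal receptors, the log2 fold change was -0.43 (unadjusted p = 0.00128, edgeR adjusted p = 0.967).

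Ddc in the PFC lay between 4.41 and 5.18 RPKM after saline (median 4.93) and between 4.38 and 7.87 after cocaine (median 5.53) at 1 day, with a log2 fold change of 0.20 ± 0.11 (limma adjusted p = 0.913). At 28 days it lay between 6.47 and 11.3 CPM after saline (median 9.60) and between 5.40 and 8.47 after cocaine (median 7.85; log2 -0.35 ± 0.15, unadjusted p = 0.0333, edgeR adjusted p = 0.842), and without saline library 4 the log2 fold change was -0.28 (unadjusted p = 0.0756). Slc6a3 lay between 0.488 and 2.13 RPKM after saline (median 1.07) and between 0.294 and 1.49 after cocaine (median 0.668) at 1 day, a wide overlap (log2 -0.69 ± 0.36, limma adjusted p = 0.913). At 28 days it lay between 0.954 and 2.28 CPM after saline (median 1.35) and between 0.745 and 1.97 after cocaine (median 1.44; log2 -0.07). Gch1 and Slc18a2 were too low in the PFC at 1 day to be tested in limma, with 17 to 35 and 13 to 71 reads per library. Slc18a2 lay between 0.238 and 0.748 RPKM after saline (median 0.413) and between 0.139 and 0.510 after cocaine (median 0.257), and Gch1 between 0.231 and 0.466 after saline (median 0.396) and between 0.260 and 0.359 after cocaine (median 0.323). At 28 days Slc18a2 lay between 0.484 and 1.25 CPM after saline (median 0.853) and between 0.271 and 1.12 after cocaine (median 0.642; log2 -0.50 ± 0.32, edgeR adjusted p = 0.853). Gch1 lay between 0.913 and 1.41 CPM after saline (median 1.07) and between 0.790 and 1.45 after cocaine (median 1.24; log2 0.06).

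No difference of the oxidases passed in the PFC. At 1 day Maoa lay between 12.1 and 13.5 RPKM after saline (median 12.6) and between 11.8 and 14.97 after cocaine (median 12.3), and Maob between 14.97 and 16.3 after saline (median 15.9) and between 12.4 and 17.3 after cocaine (median 15.2). At 28 days Maoa lay between 32.8 and 41.0 CPM after saline (median 37.4) and between 35.2 and 41.2 after cocaine (median 37.1), and Maob between 26.1 and 34.4 after saline (median 29.8) and between 29.1 and 32.6 after cocaine (median 31.2). None of the 5 genes tested in the PFC at 1 day was called by limma, which called 0.00693% of 14427 genes, or by edgeR on recovered reads. In limma 1 (Th) was lower at an unadjusted p under 0.05, against 2.11% of genes tested, and on recovered reads Ddc and Slc18a2 had such a p in place of Th. Without cocaine library 6 or saline library 2 Slc6a3 joined Th, without cocaine library 3 Ddc alone had such a p in limma, and without cocaine library 2, 4 or 5 or saline library 3 or 4 none had. None of the 7 was called at 28 days by edgeR, which called 0.0% of 16340 genes, or by DESeq2. At an unadjusted p under 0.05, 2 of the 7 (Th and Ddc) were lower at 28 days, against 2.97% of genes. Th alone was without cocaine library 2 or 5 or saline library 4, 5 or 6, and Slc18a2 joined both without cocaine library 1. At both time points the shares of all genes are those of the main fits. Shares for the fits without a library or on recovered reads are not given here. The median log2 fold change was -0.07 over the 7 genes and 0.00 over all genes tested at 28 days.

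**Figure D5:**
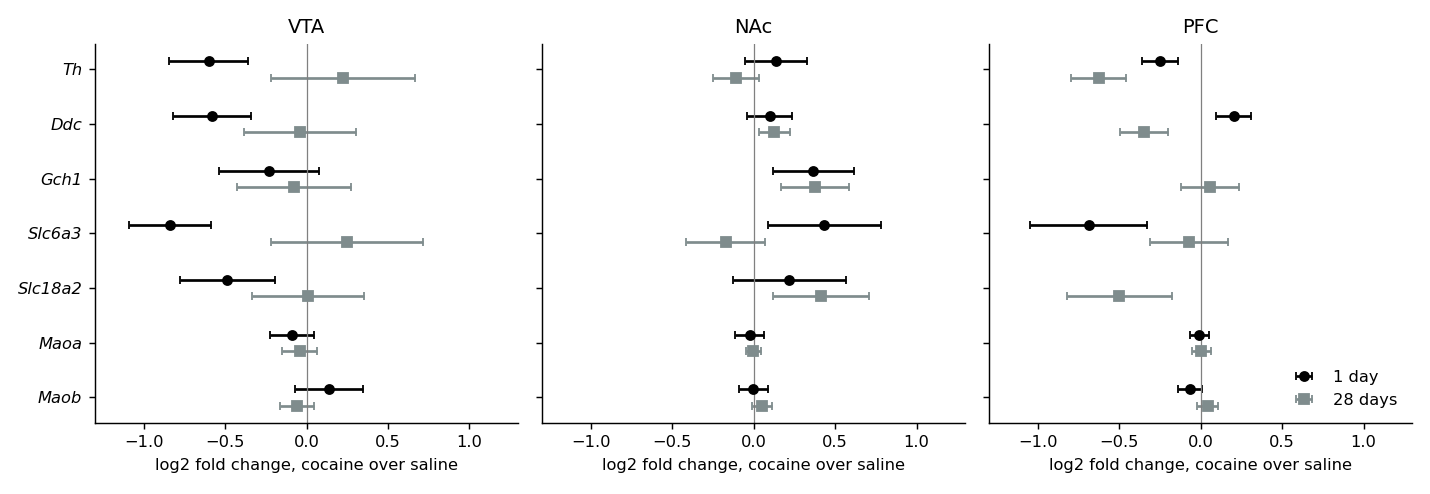
Log2 fold change of cocaine against saline for the 7 genes in each region, with SE bars, as black circles at 1 day and grey squares at 28 days; Gch1 and Slc18a2 were not tested in the PFC at 1 day. In the VTA, Slc6a3 is at -0.84 ± 0.25 at 1 day and 0.25 ± 0.47 at 28 days, and in the PFC, Th is at -0.25 ± 0.11 and -0.63 ± 0.17.

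Whether the difference between cocaine and saline itself changed with time was tested by permuting the treatment within each time point, for 7 genes in 3 regions. The difference in mean log2 level of Slc6a3 in the VTA went from -0.84 at 1 day to 0.42 at 28 days, a step of 1.26 (exact permutation p = 0.0538, adjusted p = 0.565 over 21 tests). That of Th in the VTA went from -0.60 to 0.32, a step of 0.92 (exact permutation p = 0.125, adjusted p = 0.570). That of Ddc in the PFC went from 0.20 to -0.33, a step of -0.53 (exact permutation p = 0.0157), which did not pass adjustment (adjusted p = 0.331). None of the 21 passed, and the rest had adjusted p-values up to 0.905.

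The neighbours of these genes in the pathway were read from a list of 13, among them the enzymes of biopterin synthesis and recycling (Qdpr, Pts, Spr, Pcbd1, and Gchfr, which regulates Gch1), enzymes downstream (Aldh2, Aldh1a1, Dbh) and other amine transporters (Slc18a1, Slc6a2, Slc22a3, Slc29a4). None was called in any comparison of cocaine with saline in limma or edgeR. In the VTA at 1 day 3 of the 10 tested were lower at an unadjusted p under 0.05, against 4.57% of genes tested. Aldh1a1, which oxidises the aldehyde that monoamine oxidase makes from dopamine, lay between 417 and 776 RPKM after saline (median 594) and between 225 and 497 after cocaine (median 331; log2 -0.79 ± 0.18, limma adjusted p = 0.0842). Aldh1a1 is also among the markers of the dopamine neuron index, so its difference is part of that of the index. Qdpr, which recycles biopterin, lay between 267 and 344 RPKM after saline (median 295) and between 199.8 and 262 after cocaine (median 253; log2 -0.29 ± 0.08, limma adjusted p = 0.146). The groups of Qdpr did not overlap, and those of Aldh1a1 did. The share of all genes with groups apart is not given here, so the separation of Qdpr has no base rate beside it. Slc29a4, a monoamine transporter, had a log2 fold change of -0.51 ± 0.15 (limma adjusted p = 0.170). In the VTA at 28 days 3 of the 11 tested were lower at that level, against 6.39% of genes tested, namely Gchfr (log2 -1.60 ± 0.63, edgeR adjusted p = 0.408), Slc22a3 (-1.13, adjusted p = 0.401) and Qdpr (-0.30, adjusted p = 0.417). Between regions, 8 of the 11 tested were higher in the VTA than in the NAc, led by Aldh1a1 (log2 4.99) and Gchfr (4.94). Of all genes tested, 32.6% were called higher there.

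The genes most like Th across the 23 VTA libraries, by Pearson's r of log2 level with each table centred on its own mean, were Ret (0.98), Chrna6 (0.98), Slc10a4 (0.97), Chrnb3 (0.97), Drd2 (0.97), Clptm1l (0.96), Ntsr1 (0.96) and En1 (0.96), out of 14897 genes with a median r of -0.02. Among the 7 genes, r with Th was 0.95 for Ddc, 0.95 for Slc6a3, 0.90 for Slc18a2, 0.82 for Gch1, 0.68 for Maoa and -0.14 for Maob. Slc18a2 and Gch1 had a higher r with each other and with Ddc than with Th. The r was 0.96 for Ddc and Slc18a2, 0.95 for Gch1 and Slc18a2 and 0.90 for Ddc and Gch1, whereas Gch1 and Slc6a3 reached 0.70. Ddc was about as like Th as it was like Slc18a2. The genes most like Maoa were Gnb4, Mpv17l and Tspan6 (each 0.89), and those most like Maob were Rbbp9 (0.78), Sh3kbp1 (0.76) and Rrm1 (0.75). Maoa and Maob had an r of 0.55 with each other. These correlations are a description, as all points share libraries and depth.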

How the data were processed

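RNA-seq of 71 libraries was assigned to groups by the labels, and columns to libraries by their names; 30 columns belonging to no sample analysed here were not used. Per the submitters' processing notes reads were processed with STAR 2.4.1d on mm9. The authors deposited raw read counts per gene, not normalized, for the NAc at both time points and for the VTA and PFC at 28 days. The 1-day tables of the VTA and PFC hold RPKM, which the authors computed from reads, gene length and library size. Their log2 fold changes and p-values were not used. The strand used in counting is not given in the sources used here.

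Counts were tested with edgeR 4.0.16 in R 4.3.3 (filterByExpr with a minimum count of 10 and a total of 15, TMM, glmQLFTest), and RPKM with limma 3.58.1 on log2(RPKM + 0.1) for genes with a mean of at least 0.5, over whole tables, with Benjamini-Hochberg adjustment at 0.05. The 3 regions were compared in 1 edgeR fit of the 17 saline libraries at 28 days. CPM was computed from the counts with TMM-adjusted library sizes, and RPKM at 28 days from CPM and gene length. From the RPKM, whole reads were recovered for 100.0% of genes (tolerance 0.0001), and gave the depth. Ratios to the index and time differences were tested by two-sided exact permutation over the libraries of each table (924 divisions, or 462 for the VTA at 28 days, with a smallest p of 0.00216). The tests were checked on simulated data. The alternatives were DESeq2 1.42.0, its size factors, no filter, a pseudocount of 1, recovered reads, replicate blocks, index covariates and leaving out each library. The genes named are the 7, those most like Th, Maoa and Maob, the leading markers and called list genes. Single items of the lists are not reported here. The members and lists were chosen with earlier results of these data known. The labels do not say whether replicate numbers at 1 day pair the samples, so the replicate block was an alternative. The correlation of deviations between same-numbered libraries exceeded 0.1 for 3 of 6 pairs in the NAc, 4 in the VTA and 0 in the PFC. It ranged from -0.48 to 0.61, from -0.27 to 0.45 and from -0.16 to 0.072 in the same order. These values do not decide whether the numbers pair the samples. Columns at 28 days could be tied to a group only, so their library numbers are just names. Python 3.11.15, numpy 2.4.6, pandas 2.3.3 and matplotlib 3.10.9 were used.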

Additional observations from a re-analysis of the deposited data

Results flagged for a closer look

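For each of the 7 genes, each group was searched for a library far from the others. Of 84 groups of libraries, 5 held one, and chance gives about 1 in 20, or 4.2 of these. Slc6a3 in the NAc at 1 day was 6.90 CPM in saline library 6, and the next highest was 3.19. In the NAc at 28 days cocaine library 4 was highest in both Gch1 (1.60 CPM, next 0.974) and Maoa (38.4 CPM, next 35.4). Ddc in the VTA at 1 day was 111 RPKM in cocaine library 3, and the next lowest was 211. This library also had the lowest dopamine neuron index of the 12 (2.92). Th in the PFC at 28 days was 10.6 CPM in saline library 4, and the next highest was 6.32. This library also held 118 CPM of Drd1a, 118 CPM of Drd2 and 11.0 CPM of Slc10a4, a transporter-like gene of cholinergic and monoamine neurons, which lay between 0.181 and 0.813 CPM in the other PFC libraries at 28 days. No difference between time points passed its test in any of the 7 genes.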

How the results depend on the processing

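None of the 7 genes was called for cocaine against saline in the limma, edgeR and DESeq2 fits under any alternative tried, and the calls of the ratio to the index are given further on. Of 363 values of single genes under alternatives that kept all libraries, 20 changed sign, nearly all of them small or in the VTA at 28 days. In that table the log2 fold changes of Th, Slc6a3 and Slc18a2 turned to -0.094, -0.045 and -0.26 with the dopamine neuron index as a covariate, to -0.93, -0.89 and -0.84 with the cortical index, and to -0.10, -0.010 and -0.092 with the dopamine and serotonin indices, which were added after seeing the data, and Maob turned to 0.10 with the cortical index. Ddc, Gch1 and Maoa kept their sign there but moved to -0.93, -0.99 and -0.28. In the VTA at 1 day Gch1 turned to 0.23 and 0.018 and Maoa to 0.085 under dopamine covariates, and Maob to -0.00104 with the cortical index. Maob in the NAc at 1 day was 0.00274 with the replicate block, Maoa in the PFC at 1 day 0.014 on recovered reads, the time difference of Slc18a2 in the PFC -0.012 with a pseudocount of 1, and the ratio of Th at 28 days 0.00501. The replicate block, for numbers not known to pair the samples, called 60 genes instead of 10 in the VTA at 1 day and 0 of the 7. Sign flips of 6 pairs (smallest p 0.03125) called none of the 7.

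Without the 2 farthest libraries 3 of 7 genes in place of 6 followed the dopamine neuron index at 1 day, and 2 and 0 the cortical index at 1 and 28 days, with r of Maob at -0.13 and -0.16 at 1 day. With the factors alone as the index 0 genes were called in the ratio at 28 days. Leaving out single libraries gave 0 to 1 genes called in the ratio at 1 day (Slc6a3, -0.46, adjusted exact permutation p = 0.0303 without cocaine library 6), 0 to 3 at 28 days (Ddc, Gch1 and Slc18a2 without saline library 1), and 1 to 3 of the 7 between NAc and PFC. There Ddc was lost without NAc libraries 1, 2 or 5 or PFC libraries 1, 2 or 3 (edgeR adjusted p = 0.0555 to 0.0882), and Maob without NAc libraries 1 to 5, VTA library 4 or PFC libraries 1, 2, 3, 5 or 6, and without a filter (adjusted p = 0.0666).

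Some small log2 fold changes changed sign without 1 library. Their ranges were -0.076 to 0.36 for Slc18a2, -0.067 to 0.033 for Maoa and -0.043 to 0.066 for Maob in the NAc at 1 day, and -0.026 to 0.016 for Maoa there at 28 days. In the VTA at 28 days they were -0.20 to 0.22 for Ddc, -0.27 to 0.16 for Gch1, -0.15 to 0.33 for Slc18a2 and -0.094 to 0.018 for Maoa. In the PFC they were -0.056 to 0.013 for Maoa at 1 day, and -0.027 to 0.15 for Gch1, -0.19 to 0.089 for Slc6a3 and -0.033 to 0.031 for Maoa at 28 days. The NAc treatment by time interaction ranged from -0.042 to 0.11 for Ddc, -0.14 to 0.14 for Gch1, -0.032 to 0.065 for Maoa and -0.011 to 0.10 for Maob. The step between time points ranged in the NAc from -0.046 to 0.090 for Ddc, -0.086 to 0.14 for Gch1, -0.029 to 0.064 for Maoa and -0.011 to 0.092 for Maob, in the VTA from -0.057 to 0.42 for Gch1 and -0.013 to 0.15 for Maoa, and in the PFC from -0.053 to 0.29 for Slc18a2 and -0.023 to 0.060 for Maoa. The ratio ranged from -0.10 to 0.080 for Slc18a2 at 1 day, and from -0.061 to 0.053 for Th and -0.12 to 0.20 for Slc6a3 at 28 days. Depth limits Gch1 and Slc18a2 in the NAc and PFC, with 12 to 143 reads per library. The causes of these changes were not tested.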

Other observations

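Clptm1l was among the genes most like Th across the VTA libraries and lies next to Slc6a3. On mm9 it is at chr13:73741554-73758051 on the plus strand, 25433 bases after the end of Slc6a3 as annotated. Its r with Slc6a3 over the 23 VTA libraries was 0.92. It lay between 45.5 and 67.5 RPKM in the VTA and between 42.3 and 49.0 RPKM in the PFC at 1 day. At 28 days it lay between 93.0 and 156 CPM in the VTA, 109 and 124 in the NAc and 95.0 and 109 in the PFC.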
